A study of Mus musculus with 18 samples.

Results

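The direct comparison of 2 particle treatments of mouse macrophages was examined, iron oxide against silica, in cells that received no lipopolysaccharide (LPS), which coats Gram-negative bacteria and activates macrophages. It comprised 6 of the 18 arrays of the series, 3 titled SPIO_1 to SPIO_3 and 3 titled Silica_1 to Silica_3. All 12393 genes with a named probe set entered, and each gene was read from 1 probe set, the one brightest on average across the 18 arrays. SPIO cells stood for 24 h in medium with iron oxide particles of 33 nm, and Silica cells for the same time in medium with amorphous silica particles of 50 nm. Both particles were given at a concentration that the labels write as 25 mg/ml, a unit that could not be checked here. After the wash both groups spent a further 4 h in fresh plain medium. CON cells, used here only to place a value, had medium without particles. Their labels give no wash or second stage of 4 h, so a difference in handling from the particle groups cannot be told apart from the particles wherever CON is set beside them. SPIO-LPS and Silica-LPS cells had the same particles and then LPS at 10 ng/ml for the last 4 h. All cultures were grown from bone marrow of C57BL/6 mice aged 4 to 6 weeks, in medium conditioned by L929 cells, a fibroblast line that secretes the macrophage growth factor. Replicates are labelled biological, but the labels name no separate animals, and the p-values therefore reflect only how much these cultures varied.

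Macrophages engulf particles and deliver them to lysosomes, where an iron oxide core can dissolve and silica largely does not. Released iron is stored in ferritin, exported by ferroportin or used for heme, and it can feed reactions that make oxygen radicals. Cells answer radicals and electrophiles through the transcription factor NRF2, iron through iron regulatory proteins, lysosomal load through TFEB and its relatives, and sterol shortage through SREBP2.

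Iron oxide and silica cells differed in many genes, mostly by small amounts. Relative to Silica cells, SPIO cells had higher signals for cholesterol synthesis, antioxidant and lysosomal genes. They had lower signals for chemokines, interferon response genes, MHC class II, cell cycle genes and markers of stromal cells. A gene was counted as called where limma, fitted to all 18 arrays, gave an adjusted p below 0.05. By this rule 3240 genes were called, 26.1% of all tested, with 1807 higher in SPIO (14.6% of all) and 1433 lower (11.6% of all). On the log2 scale 1183 called genes differed by under 0.25, 1494 by 0.25 to 0.5, 518 by 0.5 to 1, and 45 by at least 1, which is 2-fold. Of those 45, 25 were higher and 20 were lower in SPIO. The median difference over all genes was 0.01, the median standard error 0.08 and the median half-width of a 95% interval 0.17. The interval lay within ± 0.5 for 10557 genes, or 85.2%. In 3168 of the called genes the 3 SPIO and the 3 Silica arrays did not overlap, as was the case in 40.5% of all genes.

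The arrays of each group were close to one another. Across genes, Pearson's r was 0.9976 to 0.998 among SPIO arrays, 0.9975 to 0.9986 among Silica arrays and 0.9941 to 0.9954 between the groups. SPIO arrays correlated with CON arrays at 0.9919 to 0.9941 and Silica arrays with CON arrays at 0.9961 to 0.9979. RNA quality was read from 2 control genes, as the excess of the 3′ over the 5′ probe set on the log2 scale. It was 0.47 ± 0.025 (SD, n = 3) in SPIO and 0.56 ± 0.021 in Silica for Gapdh, and 0.66 ± 0.015 in SPIO and 0.62 ± 0.018 in Silica for Actb. The controls thus moved in opposite directions. The part of RNA quality in the results was not tested.

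The macrophage label was borne out by strong signals of its defining genes in both groups. Csf1r, the receptor of the macrophage growth factor, read 13.83, 13.82 and 13.81 in SPIO, against 13.94, 13.94 and 13.98 in Silica. Adgre1, which encodes F4/80, read 11.83, 11.93 and 11.87 in SPIO, against 12.12, 12.16 and 12.16 in Silica. Both were slightly lower in SPIO with no overlap (-0.13 ± 0.032, adjusted p = 0.00647, and -0.27 ± 0.039, adjusted p = 7.87e-05, log2 difference ± SE). With cyclic loess scaling Csf1r was at -0.07 and no longer passed (adjusted p = 0.137). Of 18 measured identity genes 6 were called higher and 7 lower (33.3% and 38.9%). The phagocytosis receptor Mertk (0.36), the lysosomal glycoprotein Cd68 (0.26), the lectin Lgals3 (0.23) and the lipid-sensing receptor Trem2 (0.22) rose, as did the lineage factors Cebpa (0.22) and Spi1 (0.20). Besides Csf1r and Adgre1, the receptor Cx3cr1 for fractalkine (-1.90), the calcium-binding protein Aif1 (-1.05), the IgG receptor Fcgr1 (-0.81), the LPS co-receptor Cd14 (-0.72) and Cebpb (-0.19) fell. The mean signal of the list was 10.8 in SPIO arrays and 11.0 in Silica arrays, and the ranges did not overlap.

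Markers of other cells also differed, and fibroblast and stroma markers differed most widely. Of 21 measured, 19 were called lower in SPIO (90.5%), with a list median of -0.42. The mean log2 signal of the list lay between 9.65 and 9.67 in SPIO arrays, 10.06 and 10.10 in Silica arrays, and 10.04 and 10.07 in CON arrays. The stromal chemokine Cxcl12 read 8.68, 8.68 and 8.66 in SPIO, against 9.66, 9.54 and 9.63 in Silica. The groups were far apart relative to their spread (-0.94 ± 0.045, adjusted p = 1.91e-09, 1.92-fold lower). The matrix protein Mgp (-0.86), the platelet-derived growth factor receptors Pdgfrb (-0.66) and Pdgfra (-0.50), Serpinf1 (-0.61), the collagen gene Col3a1 (-0.46) and Col1a1 (-0.38) fell as well. Of the 2 Pdgfrb probe sets 1 was called, and the other stood at -0.23. Dcn (-0.16) and Thy1 (0.18) were the members that did not pass. Of 15 neutrophil and precursor markers 1 was called higher and 9 lower (6.67% and 60%), among them Lcn2 (-0.77), Ngp (-0.60), Camp (-0.55) and S100a9 (-0.54). The exception was the collagenase Mmp8, which read 9.77, 9.73 and 9.78 in SPIO and 8.92, 8.81 and 8.76 in Silica (0.93 ± 0.057). The neutrophil list averaged 8.29 to 8.35 in SPIO arrays and 8.56 to 8.66 in Silica arrays. In RNA from whole cultures, fewer cells of a type and less RNA per cell cannot be told apart.

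Most lists of other blood cells stayed near or below the shares over all genes, 14.6% higher and 11.6% lower. Of 10 dendritic cell markers 1 was lower (10%, Bst2, -0.18). Of 11 T and NK cell markers limma called 0 in either direction, with 1 at an unadjusted p below 0.05. Among 10 B cell markers the adaptor Blnk rose (0.33) while Ebf1 (-0.58) and Pax5 (-0.27) fell (10% higher and 20% lower). The erythroid list had 1 of 9 lower (11.1%, Epor, -0.32) and the mast cell list 1 of 10 lower (10%, Cpa3, -0.25). Osteoclast markers were lower in 3 of 8 cases (37.5%), above the share over all genes. These were the acid phosphatase Acp5 (-0.62), the protease Mmp9 (-0.60) and the RANK receptor Tnfrsf11a (-0.28). Tnfrsf11a was not called when probe sets were averaged (adjusted p = 0.136). Mean signals of the dendritic, T and NK, erythroid and mast cell lists lay between 4.00 and 5.04 in these 6 arrays, in the lower part of a scale that began near 2.03 and ended near 14.6. The calls of Pax5, Epor and Cpa3 were each lost without some of the arrays, with Pax5 at -0.19 without Silica array 3, Epor at -0.24 without Silica array 2 and Cpa3 at -0.18 without Silica array 3. The part that the stromal and neutrophil markers had in the gene groups below was not tested.

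The largest rises were led by Bex1, an adaptor-like gene known mainly from neurons. It read 6.76, 7.32 and 6.98 in SPIO, against 3.68, 3.32 and 3.36 in Silica and 3.28, 3.38 and 3.54 in CON. The Silica and CON arrays overlapped near the bottom of the scale, while all SPIO arrays stood more than 3 log2 units above them. The difference was 3.56 ± 0.21 (95% interval 3.11 to 4.02, 11.8-fold, adjusted p = 9.71e-09). Vwf, the gene of the clotting protein von Willebrand factor, read 7.65, 7.67 and 7.77 in SPIO, against 5.86, 5.71 and 5.37 in Silica. It was 4.13-fold higher (2.05 ± 0.11, adjusted p = 6.07e-09), and Silica was not separated from CON (0.08, adjusted p = 0.78). Bst1, also called CD157, an ectoenzyme that makes cyclic ADP-ribose, read 7.79, 7.91 and 8.0 in SPIO, against 6.07, 6.16 and 6.14 in Silica (1.78 ± 0.068, 3.43-fold, adjusted p = 2.37e-10). Afp, the fetal plasma protein alpha-fetoprotein, was 3.19-fold higher (1.67 ± 0.1), and 4 of its 5 probe sets were called the same way, with differences that ran between 0.11 and 1.67.

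Several of the next genes handle glutathione, lipids or mitochondria. Gsta3 (1.56 ± 0.1) and Gstm1 (1.53 ± 0.045) encode glutathione transferases, and Slc7a11 (1.37 ± 0.14) encodes the cystine carrier that feeds glutathione synthesis. Chchd10 (1.47 ± 0.092) encodes a mitochondrial protein of the cristae, and Fabp4 (1.40 ± 0.063) a fatty acid carrier of fat cells and macrophages. Cipc (1.33 ± 0.079) encodes an inhibitor of the clock protein CLOCK, Panx1 (1.24 ± 0.061) a channel that releases ATP, and Anpep (1.24 ± 0.1) the aminopeptidase CD13. Plpp3 (1.19 ± 0.046) encodes a lipid phosphatase, and Slc40a1 (1.18 ± 0.095) ferroportin. C77080 (1.39 ± 0.16), named by its clone, completes the 15. For all 15, adjusted p was between 1.45e-11 and 7.5e-06.

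**Figure D1:**
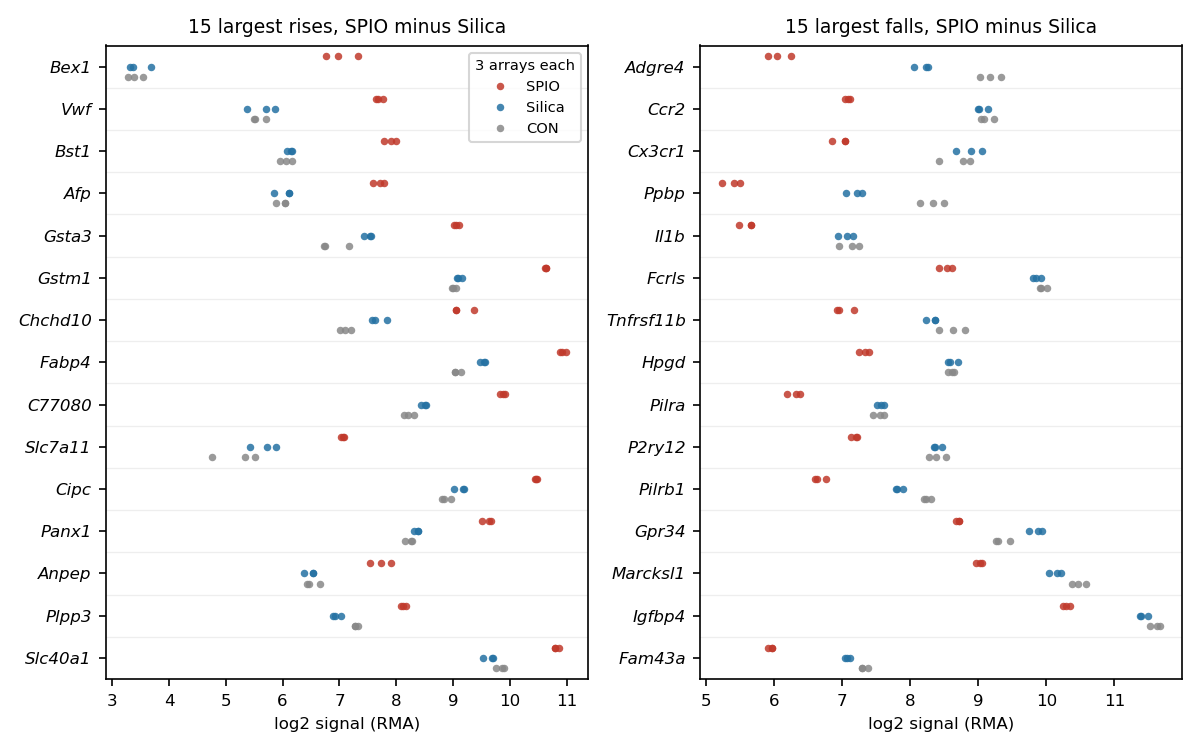
Log2 RMA signal (x axis) of the 15 genes with the largest rises (left) and the 15 with the largest falls (right) in SPIO relative to Silica, with 1 point per array for SPIO (red), Silica (blue) and CON (grey). In each gene the 3 SPIO points lie apart from the 3 Silica points, with Bex1 at 6.76 to 7.32 in SPIO and 3.32 to 3.68 in Silica. For Adgre4 and Ppbp the Silica points lie between those of SPIO and CON.

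The 15 largest falls included receptors, a chemokine, a cytokine and secreted or enzyme genes. Adgre4, an adhesion receptor of the F4/80 family, read 6.25, 6.04 and 5.91 in SPIO, against 8.05, 8.26 and 8.24 in Silica and 9.34, 9.17 and 9.02 in CON. No groups overlapped, and SPIO was 4.34-fold lower than Silica (-2.12 ± 0.1, adjusted p = 1.91e-09). Ccr2, the receptor through which monocytes follow Ccl2, read 7.12, 7.09 and 7.04 in SPIO, against 9.01, 9.15 and 9.0 in Silica (-1.97 ± 0.12, 3.91-fold lower, adjusted p = 1.19e-08). Its ligand gene Ccl2 did not pass, at 0.09 ± 0.091 with a 95% interval of -0.11 to 0.28. Cx3cr1 read 6.85, 7.05 and 7.05 in SPIO, against 9.06, 8.90 and 8.68 in Silica (-1.90 ± 0.12, 3.73-fold lower). Its 2 probe sets were both called and gave -1.90 and -0.61. For Ccr2 and Cx3cr1, Silica was not separated from CON (-0.07, adjusted p = 0.838, and 0.19, adjusted p = 0.441).

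Il1b, the gene of the inflammatory cytokine interleukin-1 beta, read 5.48, 5.66 and 5.67 in SPIO, against 7.16, 6.94 and 7.07 in Silica (-1.45 ± 0.082, 2.74-fold lower, adjusted p = 6.56e-09). The SPIO arrays lay below every Silica and CON array. A further 3 receptors on this side are best known from microglia, the macrophages of the brain. These were the ADP receptor P2ry12 (-1.21 ± 0.089), the lysophospholipid receptor Gpr34 (-1.14 ± 0.14) and the Fc receptor-like gene Fcrls (-1.34 ± 0.063). The paired receptors Pilra (-1.27 ± 0.072) and Pilrb1 (-1.17 ± 0.065), one inhibitory and one activating, fell together. Hpgd (-1.28 ± 0.1) encodes the enzyme that inactivates prostaglandins, Tnfrsf11b (-1.30 ± 0.21) the decoy receptor osteoprotegerin, and Igfbp4 (-1.13 ± 0.055) a carrier of insulin-like growth factors. Marcksl1 (-1.13 ± 0.068) encodes an actin-linked protein, and Fam43a fell by 1.12 ± 0.082. The chemokine gene Ppbp is described with its family.

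Genes of iron and heme handling moved in both directions. Of 37 measured, 13 were called higher and 5 lower, shares of 35.1% and 13.5% against 14.6% and 11.6% over all genes, with a median of 0.08. Ferroportin, the only known exporter of iron from cells, read 10.79, 10.79 and 10.87 for Slc40a1 in SPIO, against 9.68, 9.52 and 9.70 in Silica and 9.90, 9.87 and 9.76 in CON. All SPIO arrays were above, and the 3 CON arrays lay between SPIO and Silica. SPIO exceeded Silica 2.27-fold (1.18 ± 0.095, adjusted p = 1.95e-07). Hmox1, the heme-degrading enzyme heme oxygenase-1, read 11.65, 11.80 and 11.69 in SPIO, against 10.59, 10.58 and 10.59 in Silica (1.13 ± 0.073, 2.19-fold, adjusted p = 2.06e-08). The biliverdin reductases Blvrb (0.56) and Blvra (0.30), which act after it, rose too.

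Genes of iron uptake and transport were mixed. Tfrc, the transferrin receptor, read 11.14, 11.26 and 11.25 in SPIO, against 10.61, 10.51 and 10.60 in Silica (0.64 ± 0.048, 1.56-fold, adjusted p = 9.09e-08). The Silica mean was 10.57 and the CON mean 10.58, and 2 of the 3 Tfrc probe sets were called, with differences of 0.01 to 0.64. Of the transporters that move iron out of endosomes and phagosomes, Slc11a2 rose by 0.45 and Slc11a1 by 0.68. The heme transporter gene Slc48a1 (0.57), the heme exporter gene Flvcr1 (0.46), the porphyrin carrier gene Abcb6 (0.59), and the heme synthesis genes Alas1 (0.28) and Fech (0.17) rose. Ncoa4, which delivers ferritin to lysosomes, rose by 0.19. The metal importers Slc39a14 (-0.13) and Slc39a8 (-0.19), the second transferrin receptor Tfr2 (-0.28) and the iron reductases Cybrd1 (-0.14), Steap3 (0.09) and Steap4 (-0.20) were not called.

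Of ferritin, only the heavy chain was among the measured members of the list, and it was not called. Fth1, the heavy chain, read 14.51, 14.50 and 14.47 in SPIO, against 14.39, 14.44 and 14.40 in Silica. The groups did not overlap, but the difference of 0.08 ± 0.033 did not pass (adjusted p = 0.0737), and the signals sat at the upper end of the scale, where differences are compressed. With cyclic loess scaling the difference was 0.16 and passed (adjusted p = 0.00152). At 0.08 it also passed in limma with a variance trend and robust prior (adjusted p = 0.000683). The same held without the dimmest tercile of genes (adjusted p = 0.0284). The genes that fell were the siderophore-binding protein Lcn2 (-0.77), the hemoglobin scavenger Cd163 (-0.74), the hepcidin regulator Hfe (-0.72), the ferroxidase ceruloplasmin Cp (-0.48) and the iron chaperone Pcbp2 (-0.16). Cd163 read 4.33, 4.70 and 4.74 in SPIO, against 5.34, 5.55 and 5.10 in Silica, all in the lower part of the scale. Of the iron regulatory proteins, Ireb2 stood at 0.14 and Aco1 at -0.19, and neither was called.

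The antioxidant response was higher in SPIO in most of its genes. Of 39 measured NRF2 genes 28 were called higher and 3 lower (71.8% and 7.69%), with a median of 0.28. The mean log2 signal of the list was 10.14 to 10.17 in SPIO arrays, 9.74 to 9.77 in Silica arrays and 9.64 to 9.76 in CON arrays, so Silica and CON overlapped and SPIO stood apart. Gsta3 read 9.05, 9.02 and 9.11 in SPIO, against 7.43, 7.53 and 7.55 in Silica (2.94-fold, adjusted p = 3e-08). Gstm1 read 10.63, 10.62 and 10.64 in SPIO, against 9.08, 9.07 and 9.15 in Silica (2.89-fold, adjusted p = 1.45e-11). Its probe set is of a kind that may also bind related transcripts, and all 4 Gstm1 probe sets were called higher. Srxn1, which encodes the repair enzyme sulfiredoxin, rose by 1.16 ± 0.066. Slc7a11 rose by 1.37 and Gclm, a subunit of the enzyme that limits glutathione synthesis, by 0.95 ± 0.053. Nqo1, a quinone reductase often used as a readout of NRF2, read 7.75, 7.70 and 7.82 in SPIO, against 7.49, 7.39 and 7.45 in Silica. Its difference was small but passed (0.31 ± 0.081, adjusted p = 0.00948). The member that fell furthest was the epoxide hydrolase gene Ephx1 (-0.48).

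The antioxidant response element, which NRF2 binds, was searched for as TGACNNNGC on both strands from 250 bases before to 50 after each gene start in RefSeq promoters of GRCm38.p6. It was found in 8 of the 30 promoters listed for 24 of the called higher members (26.7%, Wilson 95% interval 14.2 to 44.4), against 12.4% of all 32851 promoters. Among promoters of the tested genes the share was 13.8%, and both of these shares lay below the interval. In the 200 bases before the start alone, the list's share was 13.3%, itself below that interval, and that of all promoters 8.6%. The interval counts the 30 promoters of 24 genes as independent, and the list is itself known for this element. The promoter of Gsta3, the member with the largest rise, is shown around its match (capitals), at chr1:21240428-21240508 on the + strand:
Gsta3: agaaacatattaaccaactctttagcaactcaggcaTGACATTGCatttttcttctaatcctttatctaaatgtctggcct

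Lysosomal genes were higher in SPIO on a broad front. Of 49 measured, 29 were called higher and 1 lower (59.2% and 2.04%), with a median of 0.19. The list averaged 11.07 to 11.10 in SPIO arrays, 10.85 to 10.87 in Silica arrays and 10.75 to 10.78 in CON arrays, with no overlap between any of the groups. Sort1, the sorting receptor sortilin, read 10.03, 10.03 and 10.08 in SPIO, against 9.14, 8.96 and 9.02 in Silica (1.0 ± 0.054, 2.01-fold, adjusted p = 5.25e-09). Gla, the alpha-galactosidase, read 10.06, 10.20 and 10.14 in SPIO, against 9.22, 9.18 and 9.11 in Silica (0.96 ± 0.058, adjusted p = 9.52e-09). Atp6v1a, a subunit of the proton pump that acidifies the lysosome, rose by 0.67 ± 0.044, and Npc1, which exports cholesterol from it, by 0.66 ± 0.058. The protease gene Ctsc fell (-0.33). Gpnmb, a glycoprotein of lysosome-rich macrophages, read 13.94, 13.92 and 13.94 in SPIO, against 13.69, 13.71 and 13.66 in Silica (0.24 ± 0.035).

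Autophagy genes followed in smaller steps. Of 21 measured, 11 were higher and 1 lower (52.4% and 4.76%), with a median of 0.17. Sqstm1, the cargo receptor p62, which is also an NRF2 target, read 11.47, 11.45 and 11.55 in SPIO, against 10.80, 10.78 and 10.71 in Silica (0.73 ± 0.045, 1.66-fold, adjusted p = 1.31e-08). The conjugation genes Atg12 (0.57 ± 0.06) and Atg7 (0.48 ± 0.1) and the ATG8 family gene Gabarapl1 (0.56 ± 0.048) rose. The member called lower was Wipi1 (-0.23).

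The E-box palindrome of lysosomal genes, which TFEB binds, was searched for as TCACGTGA. It stood in 7 of the 29 promoters listed for 24 of the called higher lysosomal genes (24.1%, interval 12.2 to 42.1), against 0.974% of all promoters. The list is itself known for this element. The promoters of Gla, with 2 copies, and of Atp6v1a, with 1, are shown around their matches (capitals), at chrX:134601190-134601255 and chr16:44139348-44139427, both on the - strand:
Gla: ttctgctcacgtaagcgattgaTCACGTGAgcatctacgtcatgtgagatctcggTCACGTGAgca
Atp6v1a: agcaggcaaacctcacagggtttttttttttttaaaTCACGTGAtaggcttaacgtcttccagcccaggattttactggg

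Cholesterol synthesis was higher in SPIO in every measured gene of its list. All 19 were called higher (100% against 14.6% of all genes), with differences between 0.15 (Ebp) and 0.84 (Fdps) and a median of 0.49. With 1 array left out 17 to 19 were called higher, and with cyclic loess scaling 18. The list averaged 8.83 to 8.92 in SPIO arrays, 8.34 to 8.40 in Silica arrays and 8.16 to 8.27 in CON arrays. Fdps, which makes farnesyl pyrophosphate, read 9.65, 9.76 and 9.70 in SPIO, against 8.96, 8.86 and 8.77 in Silica (0.84 ± 0.079, 1.79-fold, adjusted p = 1.02e-06). Of the 2 Fdps probe sets 1 was called, and the other stood at 0.10. Fdft1, squalene synthase, rose by 0.77 ± 0.053, although 2 of its 4 probe sets were called and they ran from -0.04 to 0.77. Mvd (0.70 ± 0.11) and Sqle (0.66 ± 0.062), both enzymes of the pathway, and Hmgcs1 (0.61), the synthase that precedes the statin target, rose. Srebf2, the gene of the SREBP2 transcription factor, rose by 0.40. The sterol response element, searched for as TCACNCCAC, stood in 1 of the 18 promoters listed for 15 of these genes (5.56%, interval 0.988 to 25.8), against 1.24% of all. That promoter, of Hmgcs1, is shown around its match (capitals), at chr13:119690178-119690258 on the + strand:
Hmgcs1: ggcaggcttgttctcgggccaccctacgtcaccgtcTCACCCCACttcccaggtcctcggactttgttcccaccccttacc

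Lipid export and fatty acid genes split. Among 16 liver X receptor targets 5 were higher and 5 lower (31.2% each), with a median of 0.03. The falls were the larger, with the phospholipid transfer protein Pltp at -0.90 ± 0.064, the apolipoproteins Apoc1 at -0.80 ± 0.081 and Apoc2 at -0.55 ± 0.063, and the cholesterol exporter Abca1 at -0.50 ± 0.059. Pltp and Abca1 were each called by 1 of their probe sets, of 2 and 3. Abca1 read 11.51, 11.54 and 11.54 in SPIO, against 12.15, 12.04 and 11.90 in Silica, and its call was lost when probe sets were averaged (-0.32, adjusted p = 0.1). Without SPIO array 2 or Silica array 2, 3 of the 16 were higher. Of 25 PPAR and fatty acid genes 8 were higher and 2 lower (32% and 8%). Fabp4 read 10.91, 10.99 and 10.89 in SPIO, against 9.54, 9.57 and 9.48 in Silica (2.64-fold, adjusted p = 1.25e-09). Fabp3, a carrier of the same family, rose by 1.01 ± 0.096, the fatty acid and oxidised lipoprotein receptor Cd36 by 0.49 ± 0.049, and Pparg by 0.55 ± 0.16 (adjusted p = 0.0197). Pparg did not pass without SPIO array 2 or 3 or Silica array 2 or 3 (adjusted p = 0.0505 to 0.0772). Pdk4, the kinase that holds back pyruvate oxidation, fell to 6.03, 5.79 and 6.01 in SPIO, against 6.90, 6.74 and 6.82 in Silica (-0.88 ± 0.13).

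In energy metabolism, 12 of 27 glycolysis and hypoxia genes were higher and 3 lower (44.4% and 11.1%). Aldoc, an aldolase, read 9.72, 9.70 and 9.67 in SPIO, against 8.52, 8.55 and 8.61 in Silica (1.14 ± 0.067, 2.2-fold, adjusted p = 7.99e-09). The oxygen sensor gene Egln3 (0.53 ± 0.14) and the phosphofructokinase gene Pfkl (0.50 ± 0.11) rose. Vegfa, a growth factor for vessels that hypoxia induces, went the other way (-0.61 ± 0.066), and 1 of its 2 probe sets was called. Respiratory chain genes moved little, with 9 of 40 higher and 1 lower (22.5% and 2.5%) and a median of 0.06. The succinate dehydrogenase genes Sdhc (0.27) and Sdha (0.25) and the complex I gene Ndufb7 (0.24) rose (Sdhc was not called when probe sets were averaged, adjusted p = 0.0706), and cytochrome c, Cycs, fell (-0.31 ± 0.11, adjusted p = 0.0408). The Cycs call was lost with cyclic loess scaling (adjusted p = 0.0578) and without SPIO array 2 or 3 or Silica array 2 or 3 (adjusted p = 0.1 to 0.15).

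**Figure D2:**
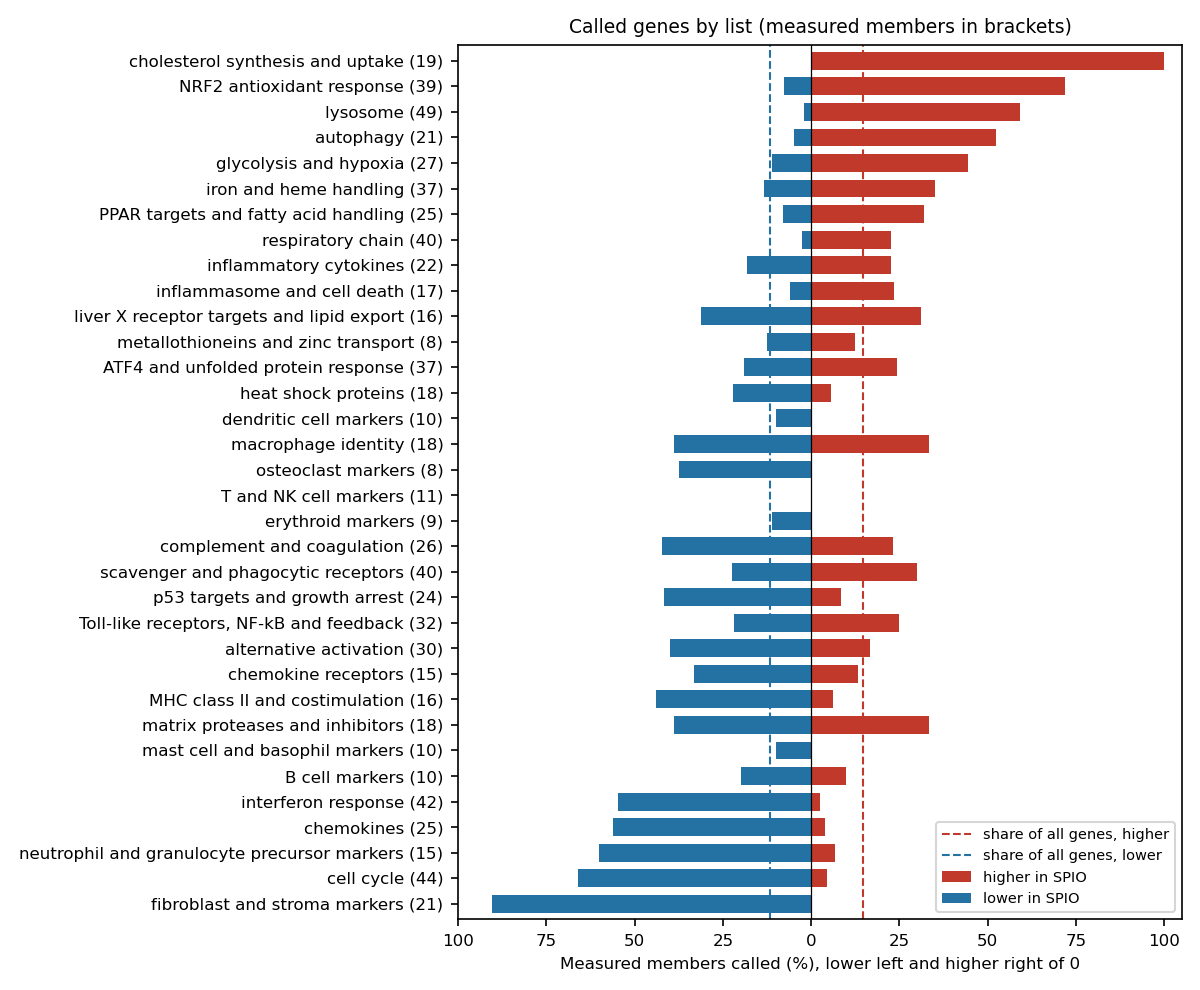
Percent of the measured members of each of 34 gene lists that were called higher (red, to the right) and lower (blue, to the left) in SPIO relative to Silica, ordered by the list's median difference, with the number measured in brackets. Dashed lines mark the shares over all genes, 14.6% higher and 11.6% lower, and the extremes are cholesterol synthesis with 100% higher and fibroblast markers with 90.5% lower.

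Chemokines, the attractants of leukocytes, were lower in SPIO. Of 25 measured, 14 were called lower and 1 higher (56% and 4%), with a median of -0.31. Ppbp, a platelet-type chemokine that acts on neutrophils, read 5.24, 5.41 and 5.50 in SPIO, against 7.29, 7.06 and 7.22 in Silica and 8.49, 8.15 and 8.34 in CON (-1.81 ± 0.13, 3.5-fold lower, adjusted p = 6.26e-08). The 3 groups did not overlap. Cxcl14 (-0.94 ± 0.064), the neutrophil attractants Cxcl2 (-0.91 ± 0.069) and Cxcl1 (-0.80), the T cell attractant Ccl5 (-0.74) and the platelet factor Pf4 (-0.65) fell, as did Cxcl12, which also stands among the stromal markers. Ccl3, a ligand of Ccr1, was the 1 that rose (0.76). Of 15 chemokine receptors 5 were lower and 2 higher (33.3% and 13.3%). Besides Ccr2 and Cx3cr1, Ccr1 fell (-0.96 ± 0.047), and Cxcr3 rose to 7.92, 7.70 and 7.93 in SPIO, against 7.23, 7.25 and 7.38 in Silica (0.57 ± 0.1).

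Cytokines had no common direction, with 5 of 22 higher and 4 lower (22.7% and 18.2%). Beside Il1b, the growth factor gene Csf1 fell to 9.82, 9.80 and 9.89 in SPIO, against 10.34, 10.33 and 10.34 in Silica (-0.50 ± 0.048), and Il18 fell by 0.37 ± 0.051. Tnf was higher by a small amount (0.31 ± 0.084, adjusted p = 0.0123), with 7.07, 6.92 and 6.91 in SPIO and 6.57, 6.62 and 6.78 in Silica. Without SPIO array 1 or Silica array 1 its adjusted p was 0.055 and 0.0514, and without SPIO array 1 the list had 3 higher. Il12b was higher by 0.62 ± 0.14 (adjusted p = 0.0046) at signals of 3.45 to 4.46, near the bottom of the scale, and 1 of its 2 probe sets was called. Il6 (-0.20, interval -0.44 to 0.05), Il10 (-0.12, interval -0.41 to 0.16) and the nitric oxide synthase gene Nos2 (-0.21, interval -0.44 to 0.01) were also near the bottom and did not pass.

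Interferon response genes were lower in SPIO, with 23 of 42 called lower and 1 higher (54.8% and 2.38%) and a median of -0.22. The list averaged 7.23 to 7.39 in SPIO arrays, 7.55 to 7.66 in Silica arrays and 7.78 to 7.87 in CON arrays, so the 3 groups stood in separate steps. Ifit3, an antiviral protein, read 6.33, 6.51 and 6.34 in SPIO, against 7.02, 7.48 and 7.28 in Silica and 7.77, 7.76 and 7.55 in CON (-0.87 ± 0.099, 1.82-fold lower, adjusted p = 8.06e-06). Its neighbour in the family Ifit2 fell by 0.74 ± 0.15 and the interferon-inducible chemokine Cxcl10 by 0.61 ± 0.15, a call lost in a fit of the 6 arrays alone (adjusted p = 0.101). Ifi204, a sensor of DNA, read 6.63, 6.84 and 6.16 in SPIO, against 7.29, 7.63 and 7.43 in Silica (-0.90 ± 0.24, adjusted p = 0.01). Iigp1, a GTPase that attacks vacuoles of parasites, read 5.03, 4.06 and 3.83 in SPIO, against 5.09, 5.40 and 4.82 in Silica. Its groups overlapped, and the difference of -0.80 ± 0.24 passed narrowly (adjusted p = 0.0241). Iigp1 did not pass without SPIO array 2 or 3 or Silica array 1 or 2 (adjusted p = 0.0512 to 0.129), nor Ifi204 without SPIO array 3 (-0.71, adjusted p = 0.0586). At an adjusted p below 0.01, 15 of the 42 were lower.

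The interferon-stimulated response element was searched for as GAAANNGAA on both strands. It stood in 9 of the 22 promoters listed for 18 of the called lower members (40.9%, interval 23.3 to 61.3), against 8.56% of all promoters. The list is itself known for this element, and the interval counts the 22 promoters of 18 genes as independent. Ifit3 and Ifit1, which fell by 0.73, are the called members with the largest falls whose promoters hold it. These promoters are shown around matches on the opposite strand (capitals, where neighbouring copies overlap in Ifit1), at chr19:34583338-34583418 and chr19:34640744-34640824, both on the + strand:
Ifit3: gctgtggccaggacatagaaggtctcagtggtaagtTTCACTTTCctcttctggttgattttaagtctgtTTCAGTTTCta
Ifit1: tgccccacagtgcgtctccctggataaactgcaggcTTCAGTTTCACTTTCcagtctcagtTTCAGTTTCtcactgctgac

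Antigen presentation genes were lower in SPIO in part. Of 16 MHC class II and costimulation genes 7 were lower and 1 higher (43.8% and 6.25%). H2-Aa, a class II chain, read 8.11, 7.93 and 8.07 in SPIO, against 8.88, 9.22 and 9.04 in Silica (-1.01 ± 0.081, 2.01-fold lower, adjusted p = 2.09e-07). H2-Ab1 (-0.95 ± 0.089), H2-Eb1 (-0.91 ± 0.082), the peptide loaders H2-DMa (-0.83) and H2-DMb2 (-0.60), the invariant chain Cd74 (-0.60) and Icosl (-0.39) fell too. The class II activator Ciita (-0.13) and the costimulators Cd80 (0.08), Cd86 (0.05) and Cd40 (0.06) were not called. Cd274, which encodes the inhibitory ligand PD-L1, rose to 8.66, 8.80 and 8.81 in SPIO, against 7.96, 7.86 and 7.70 in Silica (0.92 ± 0.062, 1.89-fold, adjusted p = 3.46e-08).

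**Figure D3:**
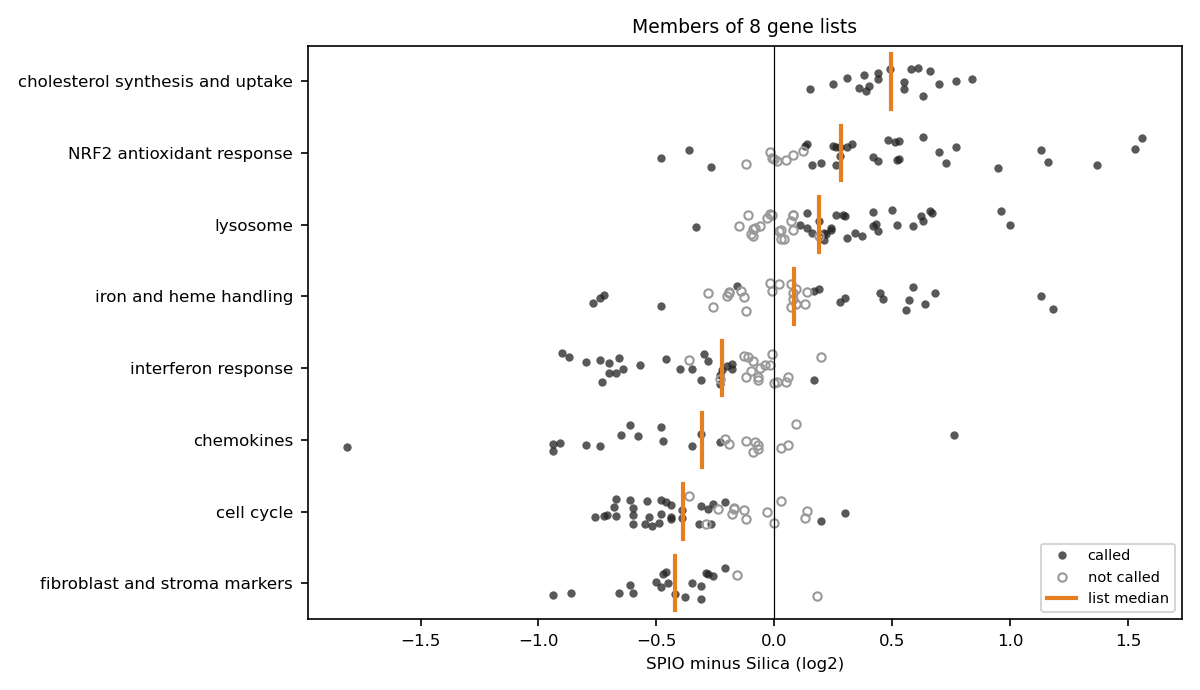
Log2 difference SPIO minus Silica (x axis) of each measured member of 8 gene lists, with filled points for called genes, open points for genes not called and an orange bar at the list's median. All 19 cholesterol genes lie right of 0 and all but 2 of the 21 fibroblast markers are called on the left, while iron and heme genes run from -0.77 to 1.18.

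Sensors and their feedback genes were mixed, with 8 of 32 higher and 7 lower (25% and 21.9%). Cd14 read 11.24, 11.30 and 11.34 in SPIO, against 11.96, 12.01 and 12.05 in Silica (-0.72 ± 0.04, 1.64-fold lower, adjusted p = 6.4e-09). Tlr1, which senses bacterial lipopeptides, fell by 0.71 ± 0.062 and the NF-kB cofactor Nfkbiz by 0.52 ± 0.095. Atf3, a stress-induced repressor of inflammatory genes, rose by 0.66 ± 0.052.

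Genes tied to alternative activation were lower more often than higher, with 12 of 30 lower and 5 higher (40% and 16.7%). Without SPIO array 3, Silica array 2 or Silica array 3, 3 were higher. Tgm2, a transglutaminase, read 10.53, 10.47 and 10.51 in SPIO, against 11.35, 11.37 and 11.42 in Silica (-0.88 ± 0.041, adjusted p = 1.72e-09). F13a1, a clotting transglutaminase made by macrophages, fell by 0.93 ± 0.052 and the mannose receptor Mrc1 by 0.53 ± 0.058. Arg1, arginase-1, read 5.81, 6.69 and 6.13 in SPIO, against 7.0, 7.14 and 6.82 in Silica (-0.78 ± 0.19, adjusted p = 0.00668). Scavenger and phagocytic receptors went both ways, with 12 of 40 higher and 9 lower (30% and 22.5%). The fungal receptor Dectin-2, Clec4n, rose by 0.91 ± 0.047, Marco by 0.49 ± 0.075 and Cd36 as given above. The IgG receptors Fcgr4 (-0.83 ± 0.084) and Fcgr1 (-0.81 ± 0.06) and the integrin Itgav (-0.47 ± 0.041) fell. The class A scavenger receptor Msr1, by which macrophages bind many particles, was not called (-0.06, interval -0.15 to 0.03), nor was Scarb1 (0.04, interval -0.12 to 0.20). Other probe sets went further. Of the 4 Msr1 probe sets 2 were called lower (range -0.19 to -0.06), and their mean passed in limma (-0.13, adjusted p = 0.016). For Scarb1, 1 of 3 probe sets was called higher (range 0.01 to 0.30).

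Complement and coagulation genes were lower in 11 of 26 cases and higher in 6 (42.3% and 23.1%). Properdin, Cfp, which stabilises the alternative complement pathway, read 9.73, 9.71 and 9.73 in SPIO, against 10.71, 10.57 and 10.62 in Silica (-0.91 ± 0.048, 1.88-fold lower). Coagulation factor X, F10, rose by 0.87 ± 0.062, as did Vwf. Of 18 matrix proteases and inhibitors 6 were higher and 7 lower (33.3% and 38.9%). The collagenases Mmp8 (0.93) and Mmp13 (0.53 ± 0.084) and Mmp19 (0.55 ± 0.17) rose, and the gelatinase Mmp9 fell (-0.60 ± 0.073). For Mmp19, 1 of 2 probe sets was called, and the call was lost when any of the arrays other than Silica array 1 was left out (adjusted p = 0.0533 to 0.0807).

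Cell cycle genes were lower in SPIO, with 29 of 44 called lower and 2 higher (65.9% and 4.55%) and a median of -0.39. The list averaged 7.84 to 7.92 in SPIO arrays, 8.16 to 8.31 in Silica arrays and 8.33 to 8.35 in CON arrays. The centromere histone Cenpa read 8.80, 8.79 and 8.80 in SPIO, against 9.56, 9.48 and 9.61 in Silica (-0.76 ± 0.055, 1.69-fold lower, adjusted p = 6.8e-08). The mitotic kinesins Kif20a (-0.72 ± 0.081) and Cenpe (-0.68 ± 0.15), and Rrm2 (-0.71 ± 0.051), a subunit of the enzyme that makes deoxynucleotides, fell. Ccnd1, the cyclin that starts the cycle on growth factor signals, read 7.83, 7.87 and 7.78 in SPIO, against 8.48, 8.44 and 8.56 in Silica and 9.15, 9.08 and 9.03 in CON (-0.67 ± 0.056). The widely used proliferation marker Mki67 did not go with them. It read 9.03, 9.18 and 9.13 in SPIO and 9.34, 9.07 and 8.94 in Silica, with an interval of -0.20 to 0.19. The replication clamp Pcna (0.30) and the licensing factor Cdt1 (0.20) were the members called higher.

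The E2F element was searched for as TTCCCGC on both strands. It stood in 3 of the 26 promoters listed for 23 of the called lower members (11.5%, interval 4 to 29), against 4.6% of all promoters, a share inside the interval. Rrm1 (-0.54) and Mcm7 (-0.46) are the 2 genes whose promoters hold it, and they are shown around the match (capitals), at chr7:102441592-102441670 on the + strand and chr5:138172006-138172084 on the - strand:
Rrm1: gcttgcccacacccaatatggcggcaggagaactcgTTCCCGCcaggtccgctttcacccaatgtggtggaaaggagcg
Mcm7: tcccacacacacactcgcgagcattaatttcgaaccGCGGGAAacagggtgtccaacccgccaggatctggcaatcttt

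Growth arrest genes linked to p53 were lower in 10 of 24 cases and higher in 2 (41.7% and 8.33%), with 1 higher without Silica array 2. The damage-inducible gene Gadd45a rose to 8.77, 8.99 and 8.76 in SPIO, against 8.05, 7.99 and 7.93 in Silica (0.85 ± 0.067, 1.8-fold). The mTOR inhibitor gene Ddit4 (-0.59 ± 0.058), the death inducer gene Pmaip1 (-0.56 ± 0.081) and the antiproliferative gene Btg2 (-0.48 ± 0.081) fell.

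Stress pathways other than the antioxidant one showed no shared direction. Of 37 genes of the ATF4 and unfolded protein response 9 were higher and 7 lower (24.3% and 18.9%). The chaperone gene Sdf2l1 rose by 0.63 ± 0.04, and the serine synthesis gene Phgdh (-0.62 ± 0.059) and the stress regulator gene Nupr1 (-0.58 ± 0.054) fell. Heat shock genes were lower in 4 of 18 cases and higher in 1 (22.2% and 5.56%), with Hspa1b at -0.69 ± 0.13, Cryab at -0.50 ± 0.11, Hspb1 at -0.46 ± 0.049 and Hsp90aa1 at -0.38 ± 0.063. Of 17 inflammasome and cell death genes 4 were higher and 1 lower (23.5% and 5.88%), with 2 higher without Silica array 3. Naip2 (0.40 ± 0.052), Casp1 (0.24 ± 0.051) and Ninj1 (0.16 ± 0.049) rose, and the necroptosis kinase Ripk3 fell (-0.26 ± 0.065). Of 8 metallothionein and zinc transport genes 1 was higher and 1 lower (12.5% each). Mt1, a metal-binding protein, read 12.12, 12.09 and 12.11 in SPIO, against 11.81, 11.76 and 11.82 in Silica (0.31 ± 0.045), and the zinc transporter Slc30a4 fell (-0.20 ± 0.061). Slc30a4 did not pass without SPIO array 2 or 3 or Silica array 1 or 3 (adjusted p = 0.0528 to 0.125), nor Ninj1 without SPIO array 3 or Silica array 2 or 3 (adjusted p = 0.0671 to 0.0989).

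The CON arrays were used to place these differences, and since both particles are set against the same CON arrays, the values are given side by side without any measure of overlap. For Ccr2, SPIO stood at -2.03 ± 0.12 from CON and Silica at -0.07 ± 0.12. For Hmox1 these were 1.16 ± 0.073 and 0.03 ± 0.073, for Vwf 2.13 ± 0.11 and 0.08 ± 0.11, and for Il1b -1.51 ± 0.082 and -0.06 ± 0.082. In other genes both stood on the same side. Adgre4 was at -3.11 in SPIO and -0.99 in Silica, Ppbp at -2.94 and -1.14 in the same order, and Gsta3 at 2.18 in SPIO and 0.62 in Silica.

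In 6 genes named by rule, the 3 CON arrays lay between the particle groups with no overlap. Plpp3 read 8.09, 8.18 and 8.12 in SPIO, 7.03, 6.92 and 6.88 in Silica and 7.28, 7.32 and 7.28 in CON. Both particles differed from CON in the test (0.84 in SPIO, adjusted p = 1.81e-09, and -0.35 in Silica, adjusted p = 0.000551). Ctla2a, a cysteine protease inhibitor, was at -0.82 in SPIO and 0.26 in Silica (adjusted p = 5.1e-08 and 0.0251). For Slc40a1 (-0.21), Clec4n (-0.12), the serine protease gene Prss23 (0.27) and Gpr34 (0.51) the difference of Silica from CON did not pass, with adjusted p between 0.0596 and 0.26.

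In a further 6 genes Silica lay outside both other groups and further from CON than SPIO did. They had the largest differences between the particles among the called genes with that pattern. Arg1 was at 0.06 in SPIO and 0.84 in Silica relative to CON, and the Silica difference passed (adjusted p = 0.0234). Igfbp5, a carrier of insulin-like growth factors, read 7.44, 7.28 and 7.49 in SPIO, against 8.30, 8.19 and 8.24 in Silica and 7.66, 7.80 and 7.85 in CON. Its Silica difference from CON was 0.47 (adjusted p = 0.000897). The Igfbp5 probe set is of a kind that may also bind related transcripts. Of 2 Igfbp5 probe sets 1 was called lower in SPIO than in Silica (-0.84), and the other stood at -0.25. The matrix protein gene Smoc2 (0.47) and Nrep (0.48) were also called higher in Silica than in CON, and Arhgap39 (0.41) and the lysosomal nuclease gene Dnase2a (0.35) were not. Among the lipid export genes, Apoc2 was at -0.05 in SPIO and 0.50 in Silica relative to CON (adjusted p = 0.589 and 0.000539).

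**Figure D4:**
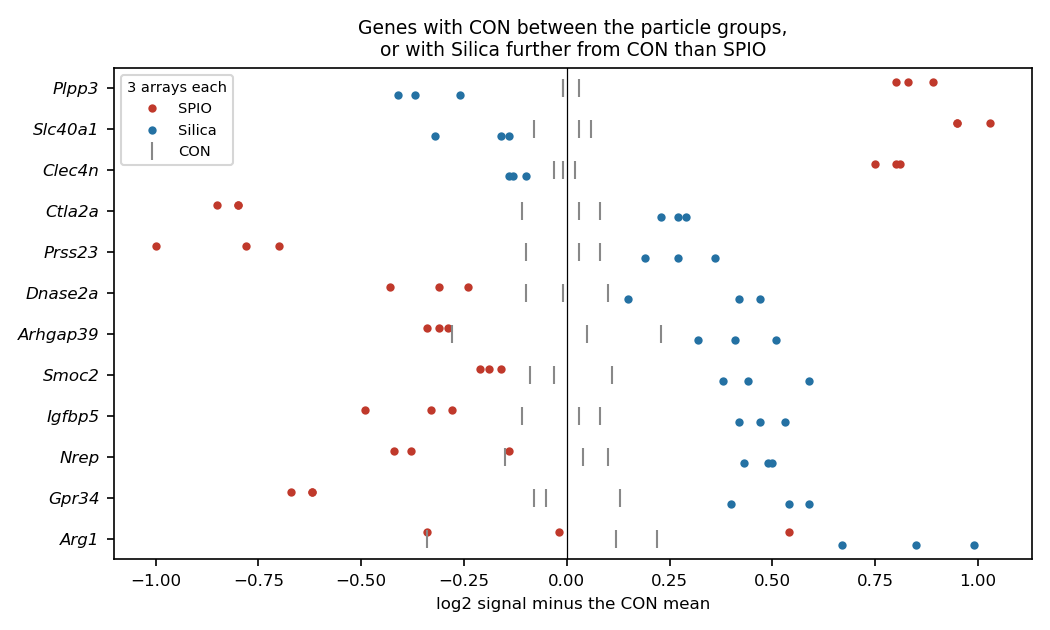
Log2 signal minus the CON mean (x axis) of the 12 genes named for the position of CON, with 1 point per SPIO array (red) and Silica array (blue) and a grey tick per CON array. Plpp3, Slc40a1 and Clec4n have SPIO points right of CON and Silica points left of it, while Arg1 has Silica points at 0.67 to 0.99 and SPIO points around the CON ticks.

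Cells given LPS after the particles were measured on other arrays, and there SPIO-LPS against Silica-LPS gave 3113 called genes (25.1% of all). Of the 12393 genes tested there, 1514 were called higher and 1599 lower in SPIO-LPS. In both comparisons 1900 genes were called, and 1814 of them in the same direction, which is 56% of the calls without LPS and 58.3% of the calls with LPS. The interaction, which tests whether the difference between the particles itself changed with LPS, was called for 717 genes (5.79%), of which 258 were positive and 459 negative. Of 19 cholesterol genes 16 were higher under LPS too, and of 39 NRF2 genes 27. Interferon response genes were called lower in 8 of 42 cases with LPS and in 23 without, and 7 of the 42 had a called interaction. With LPS the means of Ifit2 (13.55 in SPIO-LPS, 13.59 in Silica-LPS) and Ifit3 (12.86 and 13.04) stood near the upper end of the scale. Those of Iigp1 (10.91 and 11.36) and Ifi204 (10.5 and 10.78) were lower. For cell cycle genes 32 of 44 were lower with LPS, and 0 had a called interaction by limma, with 9 at an unadjusted p below 0.05.

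Ferroportin differed more between the particles with LPS. Slc40a1 read 9.01, 8.92 and 9.06 in SPIO-LPS, against 6.23, 6.09 and 6.02 in Silica-LPS, a difference of 2.88 ± 0.095 where it was 1.18 without LPS (interaction 1.70 ± 0.13, adjusted p = 1.47e-06). The Silica-LPS arrays were far below every array without LPS. Srxn1 widened to 1.96 ± 0.066 (interaction 0.80 ± 0.093) and Gclm to 1.59 (interaction 0.64). Bst1 narrowed to 0.48 ± 0.068 (interaction -1.30 ± 0.096) and Bex1 to 2.34 ± 0.21 (interaction -1.23 ± 0.3, adjusted p = 0.0234). Il1b read 13.60, 13.60 and 13.56 in SPIO-LPS, against 13.86, 13.73 and 13.87 in Silica-LPS, close to the upper end of the scale (-0.23 ± 0.082, adjusted p = 0.0526), with an interaction of 1.22 ± 0.12.

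Some genes differed little without LPS. Rabgap1l, a regulator of Rab GTPases, differed by 0.10 (interval -0.05 to 0.24) without LPS and by 2.05 ± 0.069 with it (interaction 1.95 ± 0.097, adjusted p = 1.11e-08). Plk2, a stress-linked kinase, was higher in SPIO-LPS than in Silica-LPS (1.45 ± 0.044) and lower in SPIO than in Silica (-0.38 ± 0.044), and so was the aryl hydrocarbon receptor gene Ahr (1.21 with LPS and -0.30 without). Cdkn2b, a cell cycle inhibitor, stood at -0.24 (adjusted p = 0.0514) without LPS and 1.47 with it. Il10, the anti-inflammatory cytokine, stood at -0.12 without LPS and at -1.60 ± 0.13 with it, at 6.66, 6.95 and 6.84 in SPIO-LPS and 8.44, 8.37 and 8.44 in Silica-LPS. Tha1, a threonine aldolase, and Dusp2, a phosphatase that limits MAP kinases, were higher in SPIO without LPS (0.39 and 0.34) and lower with it (-1.10 and -1.13).

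**Figure D5:**
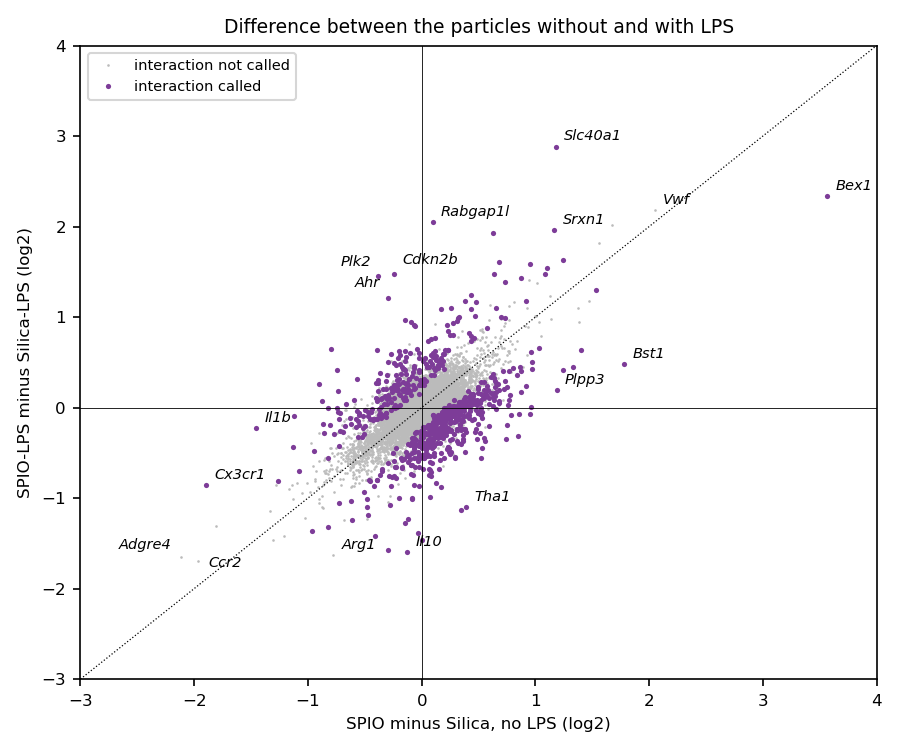
Log2 difference between the particles without LPS (SPIO minus Silica, x axis) and with LPS (SPIO-LPS minus Silica-LPS, y axis), 1 point per gene, with the 717 genes of called interaction in purple and the dotted line at equality. Slc40a1 lies above the line at 1.18 and 2.88, Bst1 below it at 1.78 and 0.48, and Vwf on it at 2.05 and 2.18.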

How the data were processed

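RNA of the 18 cultures was measured on Affymetrix arrays, 1 per culture, from 3 µg of total RNA primed with oligo-dT, per the labels' protocols. The authors deposited log2 signals, 1 per probe set and array, obtained by RMA per the submitters' processing notes. Its software and version are not given in these sources. RMA sets all arrays to nearly one distribution (medians 6.35 to 6.43 in the 6 arrays compared) and compresses differences at both ends of the scale. The values hold no detection calls, and the number of arrays limits the precision.

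Of 22626 probe sets besides controls, 20380 had 1 gene symbol, 691 several and 1555 none. Symbols were updated through gene identifiers, and 1 probe set was kept for each of 12393 genes. Tests were made in R 4.3.3 with limma 3.58.1 (lmFit, contrasts.fit, eBayes) on 1 mean per group over 18 arrays, with Benjamini-Hochberg adjustment over all genes and a threshold of 0.05. SE is the moderated model's. The procedure was tested on simulated data. Replicate numbers were not used as a block, because deviations of same-numbered SPIO and Silica arrays correlated at -0.315, -0.161 and -0.053.

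Genes and 34 lists (744 of 841 genes measured) were chosen with earlier results of these data known. Named by rule were the 15 largest rises and falls without overlap, up to 4 called genes per list, 29 measured fixed genes, up to 6 genes each for CON between the groups and for Silica outside them, and 8 with the largest interactions, 161 in all. Other genes in the text are list members chosen after their values were seen. Of the 161 genes, 78 had several probe sets, none of them called in the opposite direction, and 25 were read from a probe set of a kind that may bind related transcripts. Promoters came from RefSeq, and Srxn1, whose match lay after its gene start, is not printed. No promoter on chromosome 18 was considered for printing. No motif searched for contains another. Figures were drawn with matplotlib 3.10.9.

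The alternatives were the replicate block, a fit on the compared groups only, empirical Bayes with trend and robust estimation, removal of the dimmest genes (a tercile by mean signal), averaging of probe sets by gene, tests of each probe set separately, cyclic loess, array weights, a threshold of 0.01, a shorter promoter window, and leaving out each array in turn.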

Additional observations from a re-analysis of the deposited data

Results flagged for a closer look

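Among the named genes, 50 had a difference between the particles that itself differed between cultures with and without LPS, tested as the interaction in limma (adjusted p below 0.05 over all genes). Values are (SPIO-LPS minus Silica-LPS) minus (SPIO minus Silica) on the log2 scale. In 27 genes the difference was smaller with LPS and kept its sign, in 11 it was larger with LPS, and in 12 the sign differed. These 50 are of 161 named genes, while 5.79% of all genes had a called interaction. Most of the 161 were chosen for a large difference without LPS, and 8 for the largest interactions. The choice itself thus shaped these counts. No explanation was weighed or tested for these values.

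Genes higher in SPIO whose difference was smaller with LPS were Bst1 (-1.30), Bex1 (-1.23), Plpp3 (-0.99), Cipc (-0.88), Anpep (-0.82), Fabp4 (-0.76), F10 (-0.70), Cd274 (-0.68), Atf3 (-0.48), Tfrc (-0.35), Gla (-0.34), Atg12 (-0.33), Sdf2l1 (-0.31) and Gstm1 (-0.24). Genes lower in SPIO whose difference was smaller with LPS were Il1b (1.22), Cx3cr1 (1.05), Fam43a (1.03), Marcksl1 (0.70), Ifit3 (0.68), Cd14 (0.65), Arhgap39 (0.59), Pilra (0.46), Itgav (0.38), Ctla2a (0.38), Hsp90aa1 (0.36), Abca1 (0.30) and Adgre1 (0.25).

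The difference was larger with LPS for Rabgap1l (1.95), Slc40a1 (1.70), Srxn1 (0.80), Sqstm1 (0.66), Gclm (0.64), Panx1 (0.39) and Clec4n (0.26), all higher in SPIO-LPS, and for Il10 (-1.47), Fcgr4 (-0.49), Ccr1 (-0.40) and Msr1 (-0.34), all lower in SPIO-LPS. The antioxidant genes in this group, Srxn1, Sqstm1 and Gclm, stood at 1.96, 1.39 and 1.59 with LPS and at 1.16, 0.73 and 0.95 without it.

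The sign differed for Plk2 (1.84), Cdkn2b (1.71), Ahr (1.51), Cxcl2 (1.16) and Tgm2 (0.94), which were lower in SPIO than in Silica without LPS and on the higher side with it. It differed in the opposite sense for Tha1 (-1.49), Dusp2 (-1.47), Gadd45a (-1.16), Mmp13 (-0.98), Mmp19 (-0.88), Mt1 (-0.68) and Ccl2 (-0.50). Cdkn2b and Ccl2 were not called without LPS, and Tgm2 and Mmp19 were not called with it.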

How the results depend on the processing

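With the replicate block, which the numbers do not warrant here, 3136 genes were called, 3036 of them among the 3240, and the interaction had 679. Under the other settings the count of called genes was 2624 for the compared groups alone, 3469 with a variance trend and robust prior, 3495 without the dimmest tercile of genes, 3075 for the mean of probe sets, 3083 for every probe set on its own, 3256 with cyclic loess and 3979 with array weights. No gene called in both a setting and the original fit changed direction, except 2 for the mean of probe sets. Rises made up 57.3% of calls with cyclic loess and 55.8% without it, and loess moved the median of all genes to 0.017. At an adjusted p below 0.01, by construction, 2065 genes were called (1114 higher, 951 lower), and the interaction had 381 (131 higher, 250 lower).

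Leaving out each array in turn gave 2524 to 3024 called genes (1329 to 1762 higher, 1170 to 1324 lower), with 21 to 29 at least 2-fold higher and 21 to 23 at least 2-fold lower, and 570 to 708 interactions (215 to 256 higher, 355 to 469 lower). In promoters cut to 200 bases before the start, the antioxidant element stood in 13.3% of the NRF2 list's promoters, against 8.6% of all promoters in that window, and the other 4 shares did not leave their intervals. Of 151 named called genes 133 passed under each of the 15 alternatives that could test them, and Csf1r, Cxcl10, Bst2, Sdhc, Abca1, Tnfrsf11a and 12 genes that depended on an array lost a call under at least 1. Ahr was at -0.26 without Silica array 3 (adjusted p = 0.0519). The sign turned for Mki67 and Scarb1, neither of them called. Mki67 was at 0.06 with array weights and ran from -0.09 to 0.11 without 1 array, with 0.04 without SPIO array 1, and Scarb1 ran from -0.02 without Silica array 2 to 0.12. The cause was not tested.

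Small differences are limited by 3 arrays a group, and those of genes near an end of the scale, such as Fth1, Il6, Il12b and Nos2, by the array itself.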

Other observations

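Probe sets with several gene symbols or with none stood outside the gene tests. Of these 2246 probe sets, tested in the same way by limma, 188 were called higher and 210 lower in SPIO than in Silica. They are not named here.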
